A study of Rattus norvegicus with 15 samples.

Results

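MiR-122, the microRNA (miRNA) most characteristic of hepatocytes, was followed across 15 miRNA arrays of rat liver. Each array carried the pooled RNA of 4 animals. MiR-122 was taken as every row that the array design names miR-122, which is 1 of the 350 miRNAs on the design. The design measures it with 2 probes of 10 spots each, which gives 300 spots over the 15 arrays. The rats had been fed ethanol chronically (EtOH) or, as controls, a carbohydrate diet given in matched amounts (CHO), and liver was frozen when partial hepatectomy (PHx) was done or some hours later. Livers before PHx gave 3 EtOH arrays and 4 CHO arrays. After PHx each diet had 1 array at each of 1, 6, 12 and 24 h after PHx, so no time after surgery was replicated within a diet. For 7 of the 8 pools the arrays before and after PHx came from the same 4 animals, and the earlier array of the EtOH pool of 24 h was not analysed here. The pools of 1 h and 6 h share 1 animal in each diet. The sources used here do not give strain, sex or age.

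A miRNA is a short RNA that guides silencing proteins to messenger RNAs, and it finds its targets mainly through its seed, bases 2 to 8 counted from the 5′ end. MiR-122 is made from a single gene that is transcribed in hepatocytes and hardly at all in other cell types. In mice, loss of miR-122 lowers blood cholesterol and derepresses genes that the adult liver normally keeps low, and it leads to fatty liver, inflammation and tumours. After PHx the remaining hepatocytes leave their resting state and divide.

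The sequences show the strand that the arrays report, the hairpin it is cut from, and the miRNAs that came next to it in signal. They come from RefSeq (rat assembly GRCr8). In mature sequences the capitals mark the seed, and in the hairpin they mark the mature strand, at bases 15 to 36 of 85.
miR-122: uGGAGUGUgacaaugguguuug
miR-122 hairpin: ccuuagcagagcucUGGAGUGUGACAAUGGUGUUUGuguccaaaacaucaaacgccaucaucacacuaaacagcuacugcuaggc
let-7f: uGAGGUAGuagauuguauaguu
let-7a: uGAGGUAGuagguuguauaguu
miR-21: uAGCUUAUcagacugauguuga
The mature strand lies at chr18:61028831-61028852 on the plus strand of GRCr8, and the hairpin at chr18:61028817-61028901. The annotation places the hairpin inside LOC134482951, a transcribed pseudogene. A second miRNA gene, Mir3591, is annotated over the same bases on the minus strand, and its mature sequence complements 20 of the 22 bases of miR-122. Of 693 mature rat miRNAs in the RefSeq table, only miR-122 itself carried its seed, whereas let-7f and let-7a share theirs. The sequences of the array probes were not used here.

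Every one of the 300 miR-122 spots was well above background and none was saturated. The brightest miR-122 spot of an array reached between 47.6% and 77.9% of the saturation value of 65528. The scanner software marked 5 of the 300 as outliers or uneven, 4 of them on EtOH before PHx replicate 3, and marked spots were left out. Other dim spots of that array were not marked and stayed in its value, among them spots of 123 and 144 on the brighter probe. Values are given as scaled signal, the mean processed signal of a probe's spots after the arrays were set to 1 common 75th percentile, and the brighter of the probes stands for miR-122. Before scaling, the 75th percentile lay between 236.5 and 515.5 over the arrays.

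EtOH before PHx replicate 3 stood apart from the other 14 arrays. The coefficient of variation between its miR-122 spots was 60.8% on the brighter probe and 44.3% on the other, against 8.97% to 12.96% and 4.84% to 12.0% on the other arrays. Its dim miR-122 spots lay together in a zone of rows 40 to 149 and columns 33 to 60, on a grid of 192 rows and 82 columns. The miR-122 spots inside that zone ranged from 123 to 25375 in processed signal, with a median of 6648. Those outside it ranged from 25860 to 31179, with a median of 28083. The zone was drawn from 10 dim miR-122 spots, so this gap is a description. Spots of other miRNAs took no part in drawing it. Each was set against the same spot on the other arrays, and 338 of them lay inside the zone. On that array their median relative signal inside the zone was 0.308 of that outside, and on the other 14 arrays the same ratio lay between 0.974 and 1.02. The main diet and time differences are therefore also given without this array or with the zone's spots left out on every array. The share of signal rests on the software's totals, from which the zone's spots could not be left out.

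**Figure D1:**
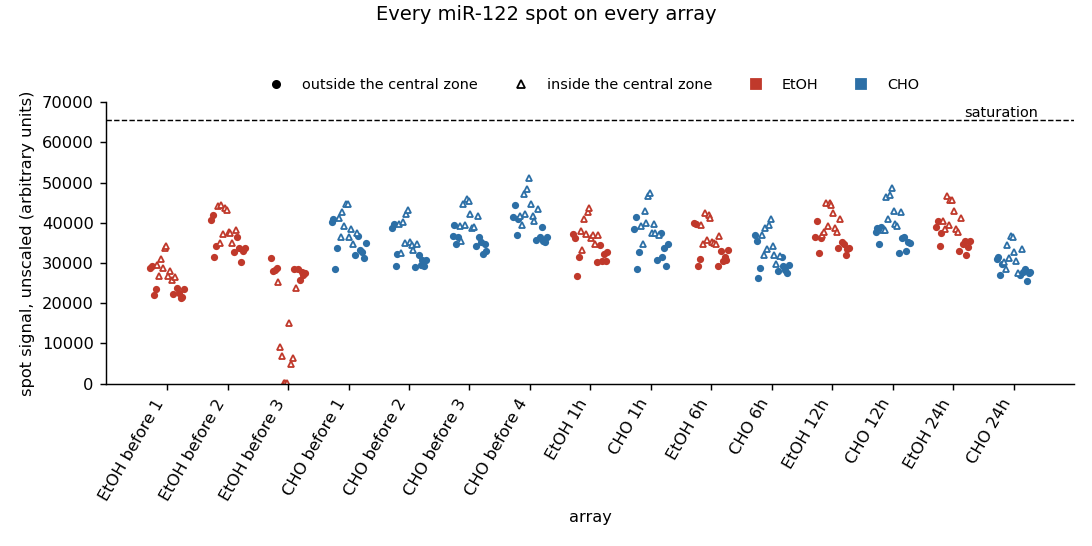
Unscaled signal of each miR-122 spot on each array, with EtOH left of CHO at each time, open triangles for spots inside the zone and the saturation value of 65528 as a dashed line. On EtOH before PHx replicate 3 the spots inside the zone range from 123 to 25375, below the 25860 to 31179 of those outside it.

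MiR-122 was the most abundant miRNA signal on 15 of 15 arrays. It held 50.7% ± 1.54 (SD, n = 15) of the summed signal of all 350 miRNAs, with a lowest share of 48.8% and a highest of 54.1%. Shares of signal are not shares of molecules, because probes differ in how strongly they bind. Let-7f, of the widely expressed let-7 family, followed with a mean share of 4.57%, and the mean share of miR-122 was 11.1 times that. Let-7a held 3.83% and miR-21, a miRNA known to rise in regenerating rodent liver, held 3.82%. The other 9 of the 10 brightest miRNAs together held 24.2%. Among them were miR-192, another liver-enriched miRNA, with 2.13%, and miR-22 with 1.65%.

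**Figure D2:**
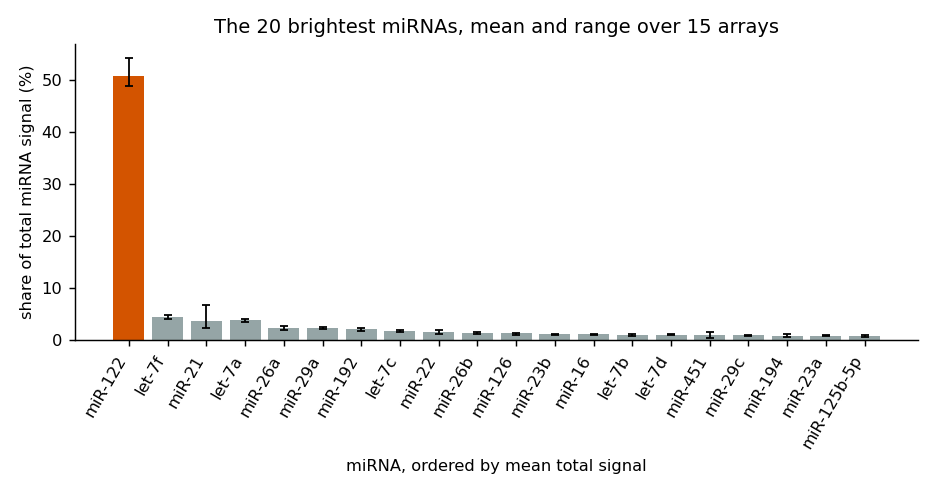
Share of the summed miRNA signal, in percent, held by each of the 20 brightest miRNAs, as mean (bars) and range (lines) over 15 arrays. MiR-122 holds 50.7% on average, and let-7f follows with 4.57%.

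Let-7f stood second on 11 arrays. On the other 4, which are the EtOH and CHO arrays of 12 h and 24 h, miR-21 stood second. The total signal of miR-122 was 12.2 times that of the second miRNA on EtOH before PHx replicate 3, the highest such ratio, and 7.29 times on the EtOH array of 24 h, the lowest. The share of miR-21 averaged 4.77% in EtOH and 4.60% in CHO livers after PHx, against 2.78% and 2.89% in EtOH and CHO livers before PHx.

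Before PHx the question was whether chronic ethanol feeding altered the level of miR-122. The scaled signal was 39202, 38750 and 33467 in the EtOH pools, against 37015, 34847, 40386 and 33552 in the CHO pools. The lowest of these 7 values was the EtOH array with the dim zone and the highest was a CHO array, so the groups overlapped. EtOH livers averaged 37140 ± 3189 (SD, n = 3) and CHO livers 36450 ± 2988 (SD, n = 4). The log2 difference in limma was 0.03 (SE 0.0926, 95% confidence interval -0.18 to 0.23), and it did not pass (adjusted p 0.913). As a ratio that is 1.02, with an interval of 0.885 to 1.17. Of the 134 miRNAs tested in this comparison, 15.7% passed. The interval does not show that the diets were alike.

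The diet comparison before PHx depended on the dim array and on scaling. Without EtOH before PHx replicate 3 the log2 difference was 0.10 (95% confidence interval -0.10 to 0.30, adjusted p 0.486). With the zone left out on every array it was 0.16 (95% confidence interval -0.04 to 0.36, adjusted p 0.277), so the upper limit depends on this array. That array then had the highest scaled signal of the 15 (43299) in place of the lowest (33467). Without any scaling, miR-122 passed as lower in EtOH, with a log2 difference of -0.50 (adjusted p 0.0449), and in that setting 76 tested miRNAs, miR-122 among them, fell and 0 rose. The unscaled signal of miR-122 was 28704, 40431 and 20117 in EtOH and 39889, 37789, 40785 and 43963 in CHO pools. The 75th percentiles of the same arrays were 288, 410.5 and 236 in EtOH and 397 to 516 in CHO, so array brightness and diet before PHx cannot be told apart on the unscaled signal.

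The probes kept a steady ratio on 14 of 15 arrays. The brighter probe was 1.14 to 1.21 times the other on 14 arrays and 0.926 times on EtOH before PHx replicate 3. On the other probe, before PHx, EtOH livers averaged 33953 ± 1916 (SD, n = 3) and CHO livers 31259 ± 2963 (SD, n = 4).

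**Figure D3:**
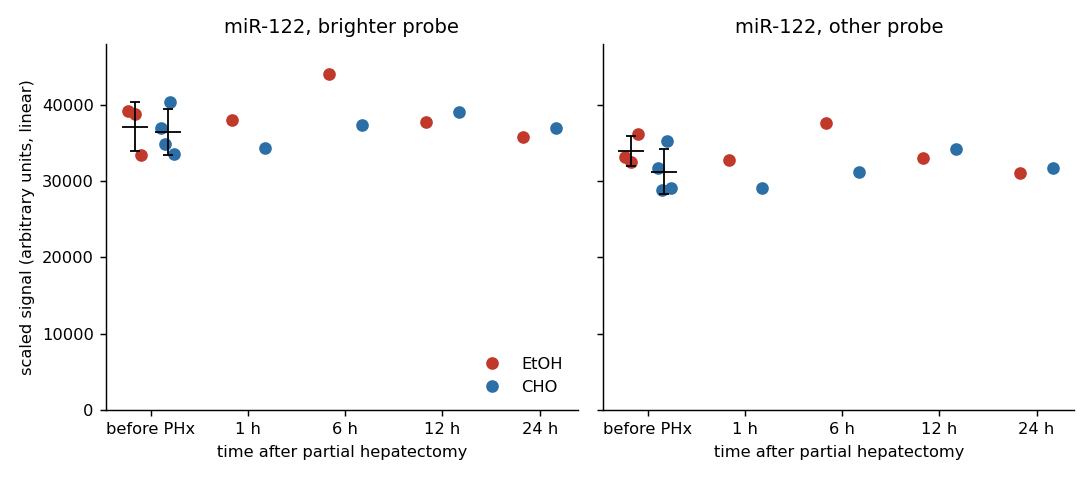
Scaled signal of the brighter (left) and the other miR-122 probe (right) on each array, before PHx and at 1, 6, 12 and 24 h after it, with EtOH left of CHO. Each point is an array of 4 pooled animals, bars show the mean and SD before PHx, and on the brighter probe all 15 arrays lie between 33467 and 44009.

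After PHx the EtOH and CHO pools were compared at the same 4 times. At 1 h the scaled signal was 38056 in the EtOH pool and 34300 in the CHO pool. At 6 h it was 44009 in the EtOH pool, the highest of all 15 arrays, and 37422 in the CHO pool. At 12 h it was 37699 in EtOH and 39080 in CHO, and at 24 h it was 35822 in EtOH and 37040 in CHO. The EtOH pool was thus the higher at 1 h and 6 h and the lower at 12 h and 24 h.

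Over the 4 times the mean was 38897 ± 3547 in EtOH and 36960 ± 1982 in CHO livers (SD, n = 4 each, with each diet's pools at different times). The log2 difference was 0.07 (SE 0.0858, 95% confidence interval -0.12 to 0.26) and did not pass in limma (adjusted p 0.663), in a comparison where 7.46% of miRNAs passed. Its ratio was 1.05, with an interval of 0.922 to 1.20. The diet difference after PHx exceeded that before PHx by 0.04 (95% confidence interval -0.23 to 0.32, adjusted p 0.932). No miRNA passed in that comparison in limma (0%), and 9 of 134 had an unadjusted p under 0.05. With each diet and time fitted as a cell of its own, the EtOH minus CHO log2 difference was 0.15 at 1 h, 0.23 at 6 h, -0.05 at 12 h and -0.05 at 24 h. None of these passed, and the adjusted p at 6 h was 0.520. At these single times 0.746%, 0%, 3.73% and 0% of miRNAs passed. Where none did, 18 miRNAs at 6 h and 7 at 24 h had an unadjusted p under 0.05. That fit lends each lone pool the spread found between pools before PHx.

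Against the livers before PHx, averaged over diets, the log2 difference of miR-122 was -0.02 at 1 h (95% confidence interval -0.24 to 0.19). It was 0.15 at 6 h (SE 0.0975, interval -0.07 to 0.36), 0.06 at 12 h and -0.01 at 24 h. None passed in limma, with adjusted p of 0.980, 0.524, 0.795 and 0.976. The shares of miRNAs that passed at these times were 0%, 4.48%, 5.97% and 13.4%. At 1 h, where none passed, 4 miRNAs had an unadjusted p under 0.05. Over all 4 times the mean was 37929 ± 2854 (SD, n = 8) after PHx and 36746 ± 2826 (SD, n = 7) before it. That is a log2 difference of 0.04 (95% confidence interval -0.09 to 0.18, adjusted p 0.804), where 6.72% of miRNAs passed. As a ratio the interval is 0.937 to 1.135. MiR-21, on the same arrays, rose after PHx by a log2 difference of 0.70 (SE 0.0756, adjusted p 0.000177). With the zone's spots left out, 3 of the 8 comparisons had the opposite sign. Their log2 differences were then -0.05 over all times, -0.05 at 12 h and -0.10 for the difference of the diet effects, and none passed. The 6 h value was 0.07 with the zone left out and 0.11 without EtOH before PHx replicate 3. With the zone left out the log2 difference was -0.12 at 1 h, -0.11 at 24 h and 0.07 for diet after PHx. None of these passed.

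Each diet's own change gave small values of either sign. In EtOH livers the log2 difference from before PHx was 0.04 at 1 h, 0.25 at 6 h, 0.03 at 12 h and -0.05 at 24 h. In CHO livers it was -0.08 at 1 h, 0.04 at 6 h, 0.10 at 12 h and 0.03 at 24 h. None of these 8 passed in limma. The share of miRNAs that passed was 0%, 1.49%, 5.97% and 7.46% in EtOH, and 0.746%, 0.746%, 6.72% and 5.22% in CHO, at 1, 6, 12 and 24 h. At 1 h in EtOH, where none passed, 3 had an unadjusted p under 0.05. The EtOH changes rest on a baseline that includes EtOH before PHx replicate 3. With the zone left out, the scaled signal in EtOH was 35762, 36762 and 43299 before PHx. It was then 34734, 41733, 34731 and 33147 at 1, 6, 12 and 24 h. Only the 6 h value was not below all of the earlier ones. Each diet's own change was not fitted in that setting.

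**Figure D4:**
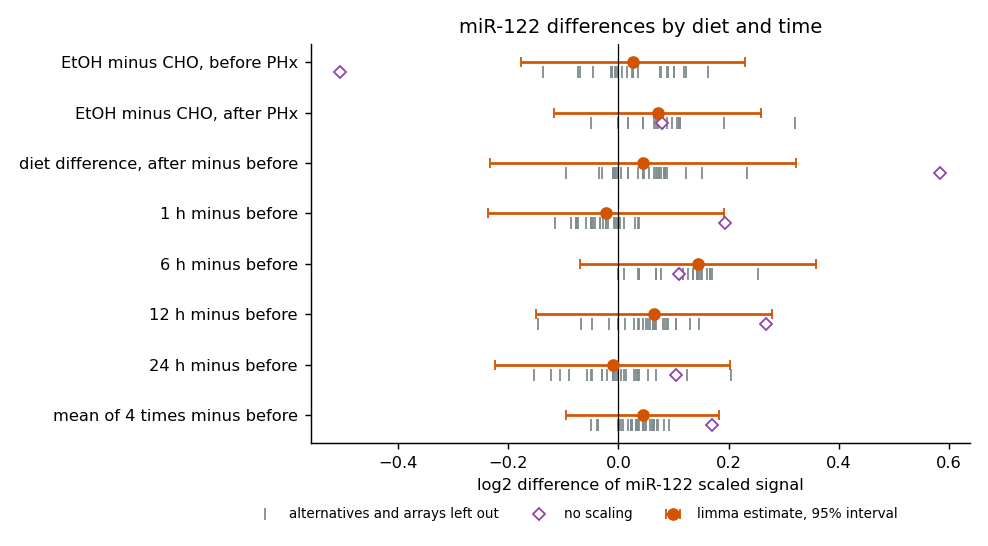
Log2 difference of miR-122 scaled signal in each of the 8 comparisons, with the 95% confidence interval of the limma fit, the other processing settings and left-out arrays as grey ticks, and no scaling as a diamond. Each of the 8 intervals spans 0, and the 6 h value of 0.15 is the highest.

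The share of total signal needs no scaling, so it was compared as well. In EtOH livers before PHx the share was 52.8%, 52.3% and 50.1%, against 51.4%, 49.5%, 51.9% and 48.8% in CHO livers. The groups overlapped, and EtOH livers averaged 51.7% ± 1.46 (SD, n = 3) against 50.4% ± 1.46 (SD, n = 4) for CHO livers. The difference of 1.34 percentage points had an exact two-sided permutation p of 0.257, where 35 splits allow no p below 0.0286. Without EtOH before PHx replicate 3 the difference was 2.17 percentage points, with an exact permutation p of 0.133 where 0.0667 is the smallest possible.

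At 1 h the share was 51.4% in EtOH and 49.4% in CHO, and at 6 h it was 54.1% in EtOH and 50.1% in CHO. At 12 h it was 50.2% in both diets, and at 24 h it was 49.1% in EtOH and 49.4% in CHO. Within pools of the same animals the share after PHx minus that before it was -1.37 and -1.98 percentage points for EtOH and CHO at 1 h. It was 1.80 and 0.550 for EtOH and CHO at 6 h, 0.137 and -1.62 at 12 h, and 0.582 for CHO at 24 h. The share was higher after PHx in 4 of 7 pairs and lower in 3. The mean difference was -0.271 percentage points, with an exact two-sided sign-flip permutation p of 0.609, where the 7 pairs allow none below 0.0156. That test treats the pairs as independent, although the pools of 1 h and 6 h share an animal. The EtOH pair of 12 h rests on EtOH before PHx replicate 3, and without that pair the mean difference was -0.339 percentage points. The share of miR-21 was higher after PHx in 7 of 7 of the same pairs.

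**Figure D5:**
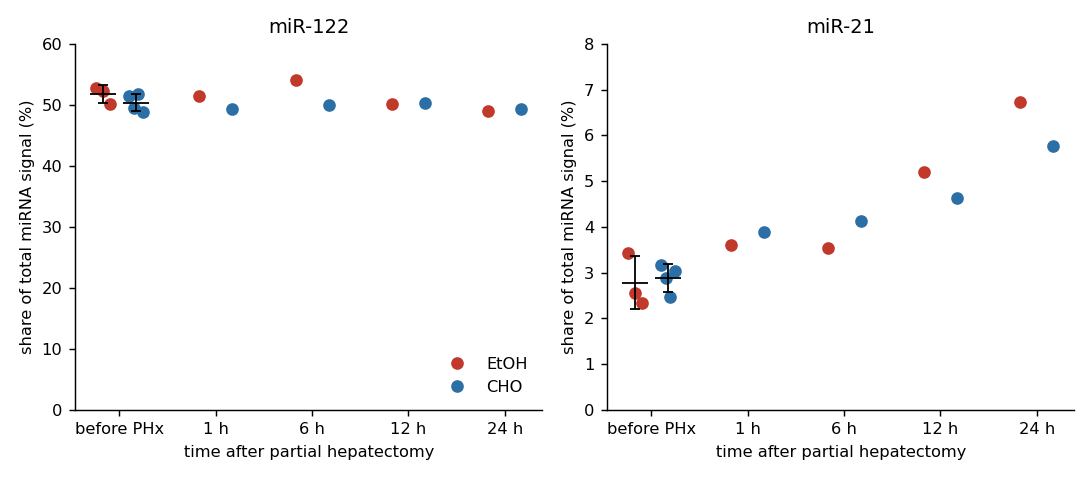
Share of the summed miRNA signal, in percent, held by miR-122 (left) and miR-21 (right) on each array, with EtOH left of CHO and mean and SD before PHx. MiR-122 lies between 48.8% and 54.1%, with the EtOH array of 6 h highest, and miR-21 between 2.34% and 6.73%.

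The 15 arrays came from 2 slides, which divide the times: the arrays of the 1 h and 6 h pools were on slide 1 and those of the 12 h and 24 h pools on slide 2. On slide 1 the scaled signal was 38056 to 44009 in EtOH and 34300 to 37422 in CHO (n = 4 each), without overlap. Its other probe behaved likewise, at 32566 to 37596 in EtOH and 28903 to 31684 in CHO. The 4 arrays of each diet on slide 1 are 2 pools measured before and after PHx, and these pools share an animal, so they are not 4 independent samples. On slide 2 the diets overlapped, at 33467 to 37699 in EtOH (n = 3) and 33552 to 40386 in CHO (n = 4). The 75th percentile before scaling on slide 1 was 288, 391, 410 and 340 in EtOH and 424, 460, 427 and 373 in CHO. Scaled miR-122 signal there was lower on brighter arrays, with a Spearman correlation of -0.881 with that percentile (Pearson -0.683). The Spearman correlation was -0.036 on slide 2 and -0.446 over all 15 arrays. Scaled signal is already divided by that percentile, so the scaling itself can give a negative correlation. The part of brightness in the slide 1 separation was not tested.

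Fitted within slide 1, the EtOH minus CHO log2 difference was 0.12 before PHx (adjusted p 0.277) and 0.19 after it (adjusted p 0.0935). These fits count each array as a sample. Of 134 miRNAs tested within slide 1, 12 passed as higher and 25 as lower in EtOH before PHx. After PHx 9 passed as higher and 17 as lower. How many miRNAs were without overlap between the diets on slide 1 was not counted. Within slide 2 the difference of miR-122 was -0.14 before and -0.05 after PHx. The diet difference on slide 2 minus that on slide 1 was -0.25 (95% confidence interval -0.48 to -0.02). In a comparison chosen after these values were seen, its adjusted p was 0.223 in limma, and 0.746% of miRNAs passed. Slide and pool time cannot be told apart, and the array with the dim zone is on slide 2.

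MiR-122 varied little over the 15 arrays. The SD of its log2 scaled signal was 0.107, against a median of 0.197 over the 134 tested miRNAs and 0.438 for miR-21. That is position 14 from the lowest. Without EtOH before PHx replicate 3 the SD was 0.101, against a median of 0.192, and the position 17. Among the 20 brightest miRNAs, whose median SD was 0.131, it was in position 5 from the lowest. Its highest scaled signal was 1.32 times its lowest, and the unscaled signal spanned 2.19 times.

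The authors' deposited table holds no information on a change in miR-122. Its log2 value for miR-122 was 15.47 in all 15 columns. The 13 highest ranks of that table each held 1 value in every column, so a miRNA that is first on every array has the same value on each.

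Other miRNAs enriched in liver were read from a list of 13 names, of which 11 are on the array and 8 were tested. In none of the 8 comparisons did any of them pass in limma (0 rose and 0 fell). In each comparison 0 or 1 of the 8 had an unadjusted p under 0.05. Over all 134 tested miRNAs that number ran from 4 at 1 h to 41 for diet after PHx. For diet before PHx, where 15.7% of all tested miRNAs passed, their median log2 difference was 0.04, against -0.08 over all tested miRNAs. For diet after PHx it was 0.09 against -0.05. Over time it was -0.0082 against 0.00078 at 1 h, -0.05 against 0.07 at 6 h, -0.06 against 0.06 at 12 h and 0.10 against 0.02 at 24 h. MiR-193 differed by -0.44 at 6 h (adjusted p 0.0718) and by -0.31 at 12 h (adjusted p 0.228), the differences furthest from 0 among the 8 at those times. MiR-194, encoded in a cluster with miR-192, differed by 0.18 for diet before PHx (adjusted p 0.232), -0.19 at 6 h and -0.20 at 12 h. MiR-101b differed by 0.32 at 24 h (adjusted p 0.0565), and miR-365 by 0.48 for diet after PHx (adjusted p 0.152). MiR-192 differed by 0.01 for diet before PHx and 0.00442 at 24 h. Summed, the 11 listed miRNAs held a median of 6.79% of signal in EtOH and 6.26% in CHO livers before PHx. After PHx they held 6.39% in EtOH and 6.10% in CHO livers.

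The hepatocyte identity of the samples was read from miR-122, miR-192 and miR-194, which were detected on all arrays. Markers of other liver cells and of blood were present at far lower shares than miR-122, but not than the other hepatocyte markers. MiR-192 held 2.13% and miR-194 0.925% on average, against 1.34% for miR-126 and 1.05% for miR-451. The endothelial miR-126 and miR-126* held 1.08% to 1.59% of the signal of an array, and the erythroid miR-451 and miR-144 held 0.444% to 1.68%. The 5 stellate and mesenchymal markers held 0.562% to 0.881%, the 4 leukocyte markers on the array 0.172% to 0.279%, and the 5 epithelial markers 0.0642% to 0.111%. Before PHx the median share of each of these 5 classes was lower in EtOH than in CHO livers, with ranges that overlapped for all but the epithelial markers. Of those 5 epithelial markers, 2 were detected on all arrays. How many of all miRNAs were without overlap in this comparison was not counted. The median log2 difference over all tested miRNAs was -0.08. Endothelial markers held 1.24% in EtOH and 1.47% in CHO, and erythroid markers 1.14% in EtOH and 1.19% in CHO. Stellate and mesenchymal markers held 0.634% in EtOH and 0.779% in CHO. Leukocyte markers held 0.175% in EtOH and 0.211% in CHO, and epithelial markers 0.0696% in EtOH and 0.0902% in CHO. In limma 2 of 3 tested epithelial markers fell for diet before PHx, miR-200a by 0.45 and miR-200b by 0.57 on the log2 scale. Of 3 tested leukocyte markers 1 fell, miR-142-3p, by 0.50. Over all 134 tested miRNAs 15.7% passed in that comparison, 4 as higher and 17 as lower in EtOH. All 3 calls were lost with the percentile over all probes. The log2 differences were then -0.38 for miR-200a, -0.51 for miR-200b and -0.44 for miR-142-3p (adjusted p 0.164, 0.161 and 0.161). They were also lost with quantile normalization, with normexp and without the filter on dim miRNAs. Single calls were lost in further settings. With the dim zone left out miR-142-3p did not pass (adjusted p 0.0994), whereas miR-200a and miR-200b did (0.0174 each). None of the 2 erythroid, 2 endothelial and 5 stellate and mesenchymal markers passed for diet before PHx. In limma 0, 1 and 3 of them had an unadjusted p under 0.05, as did 35 of all 134 tested miRNAs. The part of these cell types in the miR-122 values was not tested. In pooled bulk liver, fewer hepatocytes and less miR-122 per hepatocyte cannot be told apart.

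Likeness to miR-122 was measured as the Pearson correlation of log2 scaled signal over the 15 arrays, for the other 133 tested miRNAs. It is a description, since all values share an array, its scaling and its brightness. The highest were let-7a (0.835), miR-30e* (0.824), miR-352 (0.814), miR-148b-3p (0.810) and miR-30d (0.789), against a median of 0.0689. The lowest were miR-101a (-0.709), miR-212 (-0.640) and miR-30e (-0.591). Without EtOH before PHx replicate 3, let-7a and miR-30e* were still among the 5 highest, and miR-30a*, let-7f and let-7d took the other places. None of the 3 lowest remained among the 3 lowest, with miR-101a at -0.668 (position 129 of 133), miR-212 at -0.557 (116) and miR-30e at -0.600 (121).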

How the data were processed

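Total RNA was extracted with Trizol and labelled with Cy3 for single-colour Agilent arrays, per the labels' protocols. The scanner files, as deposited, give spot intensity after background subtraction by Agilent Feature Extraction, version 10.7.3.1 according to the submitters' processing notes and 10.5.1.1 per the file headers. The processed and background-subtracted signals differ by a relative 5e-06 at most. The authors' deposited table gives 1 log2 value per miRNA and array, and the sources used here do not state its method or centring. Its column medians lay between 0.106 and 1.10.

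Control spots and 2503 marked spots (2.38%) were left out. Of 7000 spots for 938 probes and 350 miRNAs, probe means were divided by the array's 75th percentile, taken over the 185 probes found on every array (a share of 0.5 of spots well above background), floored at 9.61 and taken as log2. The brightest probe stood for its miRNA. A miRNA detected on at least 3 arrays was tested, which left 134 tested and 216 untested. The limma model (lmFit and eBayes, version 3.58.1, R 4.3.3) held all 15 arrays and had 1 diet term before surgery, 1 diet term after it and 1 term per time, with Benjamini-Hochberg adjustment and a call at an adjusted p under 0.05. The script was tested on simulated data. Shares of signal use the software's total per miRNA. The number of arrays limits the precision. The main model counts each array as a sample, although most pools were measured both before and after PHx. Its p-values therefore rest on differences between arrays, not only on those between pools.

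Each array before PHx was paired with an array after PHx through the labels, which name the time it is paired to and list the same animal identifiers, and the consensus correlation between arrays of 1 pool was 0.114. For normexp the files hold a median spot signal and 1 background value per array, so these replaced the mean signal. The miRNAs named are miR-122, the 10 brightest, the 5 most and 3 least like miR-122, the liver-enriched list and miR-21. Members, lists and rules were chosen with earlier results of these data known.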

Additional observations from a re-analysis of the deposited data

Results flagged for a closer look

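Dixon's criterion for a single array that lies apart within a group of 4 was applied to 6 quantities of miR-122. It marked 1 of them. In CHO livers before PHx, the total signal of miR-122 was 11.2 times that of the second miRNA on replicate 1, whereas the other 3 arrays lay between 10.54 and 10.64. Chance marks about 1 in 20 groups. The EtOH livers before PHx, with 3 arrays, could not be examined this way.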

How the results depend on the processing

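Of 282 alternative log2 differences of miR-122, 1 had an adjusted p under 0.05, diet before PHx without scaling (-0.50). Outside that setting the lowest adjusted p was 0.0935. Of the 150 log2 alternatives that used all 15 arrays, 28 had the opposite sign. Quantile normalization, also after normexp, gives the brightest probe of every array 1 value. There miR-122 could differ only through EtOH before PHx replicate 3, where its other probe was the brighter. It therefore gave 0.036 at each time with quantile normalization and 0.035 with normexp. The authors' values could show no change, and leaving out saturated spots left miR-122 as it was. The cause of the other sign changes was not tested. Signs turned for diet before PHx with quantile normalization (-0.073), normexp (-0.070), total signal (-0.045), marked spots kept (-0.0037) and within slide 2 (-0.14). Diet after PHx turned within slide 2 (-0.050). The difference of the diet effects turned with the other probe (-0.035), the median of spots (-0.0040), the total without miR-122 (-0.0090) and the dim zone left out (-0.095). The mean after PHx turned with the percentile over all probes (-0.037), the total without miR-122 (-0.039) and the dim zone left out (-0.050). At 1 h the sign turned with quantile normalization (0.036), normexp (0.035), no scaling (0.19) and total signal (0.0091). At 12 h it turned with all probes (-0.15), the total without miR-122 (-0.068) and the dim zone left out (-0.048). At 24 h it turned with quantile normalization (0.036), normexp (0.035), all probes (0.035), no scaling (0.10), marked spots kept (0.031), slide as a block (0.028) and within slide 2 (0.054). The paired share turned with the authors' deposited values on a linear scale (0.0506).

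With the pool as a fixed replicate block the 24 h value was 0.20, and with the pair-fed set as a block it was 0.12 and diet before PHx was -0.012. The block changed no call for miR-122. Diet before and after PHx could not be fitted with a fixed pool block.

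Leaving out 1 array at a time gave -0.014 to 0.10 for diet before PHx, 0.017 to 0.11 for diet after PHx, -0.029 to 0.085 for the difference of the diet effects and 0.0074 to 0.071 for the mean after PHx. It gave -0.075 to 0.030 at 1 h, 0.036 to 0.25 at 6 h, -0.017 to 0.15 at 12 h and -0.090 to 0.069 at 24 h. The share difference for diet before PHx was 0.799 to 2.17 percentage points, and the paired one -0.616 to 0.0139. The dim zone alternative was chosen after seeing the data. For the share, leaving out saturated spots was not run, because no miR-122 spot was saturated. All miR-122 spots were called well above background, including dim spots of 123 and 144 on EtOH before PHx replicate 3.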

Other observations

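The unscaled log2 signal of miR-122 rose by 0.941 for each log2 unit of array brightness, the 75th percentile before scaling. The median over the 100 miRNAs detected on all arrays was 1.01, and miR-122 was in position 37 from the lowest. Without EtOH before PHx replicate 3 its slope was 0.679 against a median of 0.975, in position 14. No test was made of these slopes.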
